A study of Mus musculus with 9 samples.

Results

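The comparison described here is that of mice with both Dot1l alleles floxed, Dot1l fl/fl, against mice with none, Dot1l +/+, over all genes expressed in the dissected adult midbrain. Its members are the 3 Dot1l fl/fl and the 3 Dot1l +/+ libraries, chosen by the genotype in their labels, of 9 libraries in all, and the other 3 are Dot1l fl/+. Every mouse, controls included, carried 1 Pitx3-Cre allele (Pitx3-Cre/+) and the Rosa-lox-stop-lox-Yfp reporter on a C57/Bl6 background (C57BL/6J in the study's methods), and was taken at 180 days (P180). Cre was placed in the Pitx3 locus in every group and acts where Pitx3 was expressed, which in the brain is the dopamine neurons of the midbrain. A library is a pool of 3 dissected ventral midbrains, and p-values measure the spread between such pools, not between animals. The series description speaks of sorted embryonic cells, whereas each library label gives dissection and 180 days. The tissue therefore also holds glia, vessels and neurons that never made Cre.

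The 6 libraries held 16422135 to 26703270 counts on genes. The smallest was Dot1l fl/fl replicate 3. Replicate 1 of each genotype had Ddx3y, a gene of the Y chromosome, at 118 to 127 CPM and replicates 2 and 3 had Xist, the transcript of the inactive X chromosome, at 632 to 817 CPM (all 9 libraries), so the pools of one number were alike in these transcripts across the genotypes. Levels are normalized CPM (counts scaled to the library total and the TMM factor), fold changes are log2 values from edgeR's quasi-likelihood fit, and a positive fold change is higher in Dot1l fl/fl. Of 47729 identifiers, 17671 genes were tested. Dopaminergic markers were present in each library (Th at 44.5 CPM or more), together with oligodendrocyte markers at a summed 11416 to 12476 CPM.

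DOT1L is the enzyme that methylates lysine 79 of histone H3, a mark laid down over the bodies of transcribed genes, and it has no SET domain, unlike most other histone lysine methyltransferases. Midbrain dopamine neurons make dopamine from tyrosine through tyrosine hydroxylase (Th) and aromatic amino acid decarboxylase (Ddc), load it into vesicles through the monoamine transporter Vmat2 (Slc18a2) and take it back up through the dopamine transporter Dat (Slc6a3). Their identity is kept by transcription factors such as Nr4a2 (Nurr1), Pitx3, En1, Lmx1b and Foxa2. In the adult, the substantia nigra and the ventral tegmental area hold different subsets of these neurons.

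The part of Dot1l between the loxP sites is exon 5, and its sequence is shown because this is the stretch that Cre can remove in Dot1l fl/fl. In the transcript Dot1l-201 of GENCODE M21 it is exon 5 of 28, at chr10:80771138-80771366 (GRCm38, plus strand), and holds 229 of 6808 transcript bases, or 3.36%. All of them are coding, 264 coding bases lie before them, and 229 is 1 more than a multiple of 3.
Dot1l exon 5: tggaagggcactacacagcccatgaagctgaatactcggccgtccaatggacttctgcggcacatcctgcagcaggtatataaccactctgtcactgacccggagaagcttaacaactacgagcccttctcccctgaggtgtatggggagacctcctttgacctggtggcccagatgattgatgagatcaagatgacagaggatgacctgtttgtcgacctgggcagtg

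Dot1l itself was at 85.2, 80.2 and 85.1 CPM in the Dot1l +/+ libraries and at 82.1, 73.9 and 82.9 CPM in the Dot1l fl/fl libraries. Replicate 2 was the lowest of each genotype and the groups overlapped. The log2 fold change of −0.069 (SE 0.0941, edgeR adjusted p-value 0.999) was smaller than its error. Counts are per gene and not per exon, so the 28 exons are counted together and the loss of exon 5 cannot be read from them. Among 20 tested genes of DOT1L's partners and of H3K79 methylation, 1 (5%) had an unadjusted p-value under 0.05, against 3.93% of all genes. It was the methyltransferase gene Kmt2a (−0.18, SE 0.083), with overlapping pools, and the median of the list was −0.050. The count was 0 with an offset for length and GC content in the fit, and without control replicate 1 or 3 or Dot1l fl/fl replicate 1 or 2.

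Over all genes, 0 passed an adjusted p-value of 0.05 in edgeR with genotype as the only term, and the lowest value was 0.0906, for Slc6a3. An unadjusted p-value under 0.05 was found for 694 genes (3.93% of those tested), 390 higher (2.21%) and 304 lower (1.72%) in Dot1l fl/fl, and one under 0.01 for 117 (0.662%). These counts leaned on single libraries: they were 382 and 52 without Dot1l fl/fl replicate 2, and the second was 228 when Dot1l fl/fl replicate 3 was left out. Without control replicate 1 the second was 67, and without Dot1l fl/+ replicate 2 it was 187. In 1815 genes (10.3%) the pools of the genotypes did not overlap. Deviations of same-numbered pools correlated at 0.684, 0.409 and 0.252 for numbers 1, 2 and 3, and those of differently numbered pools reached 0.342. A fit with the replicate number as a block called 3 genes in simulated data without any change. In these libraries that fit passed 3 genes at the adjusted threshold (0.017%), all lower, Th, Slc6a3 and Slc18a2, and 782 (4.43%) had an unadjusted p-value under 0.05. DESeq2 on all 9 libraries also called 3, and these were the same genes. DESeq2 on the 6 libraries called 8, of which 1 was higher, and edgeR on the 6 libraries 4. Ttr was among the calls of both, Anxa1 and Ddc among the 8, and without the filter on low counts 118 genes were called. Adjusted p-values below are from edgeR on all 9 libraries with the filter unless another fit is named. The 3 genes serve dopamine synthesis, reuptake and vesicle storage and are described first.

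The promoters of these 3 genes are shown because these genes were the ones called together. They span 250 bases before to 50 bases after the start of transcription and come from RefSeq on GRCm38.p6, with capitals marking a match to the motifs searched on both strands: the NBRE to which NR4A2 binds (AAAGGTCA), the cyclic AMP response element (TGACGTCA), a bicoid-type site as PITX3 uses (TAATCC), the TATA motif (TATAAA) and the GC box (GGGCGG). The Th promoter lies at chr7:142899946-142900245 on the minus strand, that of Slc18a2 at chr19:59260628-59260927 on the plus strand and that of Slc6a3 at chr13:73536497-73536796 on the plus strand.
Th promoter: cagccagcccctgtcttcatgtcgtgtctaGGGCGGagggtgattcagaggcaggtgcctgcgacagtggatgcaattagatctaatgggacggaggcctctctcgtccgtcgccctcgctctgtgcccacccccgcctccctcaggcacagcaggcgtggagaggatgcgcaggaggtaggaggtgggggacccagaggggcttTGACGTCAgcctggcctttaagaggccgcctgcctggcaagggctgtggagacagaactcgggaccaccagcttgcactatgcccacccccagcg
Slc18a2 promoter: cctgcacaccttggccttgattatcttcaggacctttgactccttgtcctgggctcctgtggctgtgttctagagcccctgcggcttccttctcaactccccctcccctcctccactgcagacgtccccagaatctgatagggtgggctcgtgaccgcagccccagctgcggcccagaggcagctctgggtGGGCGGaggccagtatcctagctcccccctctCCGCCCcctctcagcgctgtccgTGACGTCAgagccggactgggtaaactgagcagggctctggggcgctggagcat
Slc6a3 promoter: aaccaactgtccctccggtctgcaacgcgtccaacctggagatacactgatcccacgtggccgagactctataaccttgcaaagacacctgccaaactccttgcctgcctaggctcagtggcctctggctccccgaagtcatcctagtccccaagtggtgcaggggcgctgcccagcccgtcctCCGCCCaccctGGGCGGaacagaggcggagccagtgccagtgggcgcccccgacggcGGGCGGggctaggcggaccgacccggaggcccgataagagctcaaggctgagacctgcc
Th and Slc18a2 each held 1 match to the cyclic AMP response element, which 1.79% of the 32817 promoters of the same length hold, and all 3 promoters held a GC box, which 35.6% hold. None of the 3 windows held the letters of the NBRE (1.51% of all promoters), the bicoid-type site (7.06%) or the TATA motif (13.6%). A match here is a run of letters and not a shown site of binding.

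Slc6a3, the dopamine transporter of the cell surface, was at 166, 150.5 and 144 CPM in the 3 Dot1l +/+ libraries and at 94.3, 92.9 and 101 CPM in the 3 Dot1l fl/fl libraries. The groups did not overlap, and the mean of Dot1l fl/fl was 62.5% of the control mean. The log2 fold change was −0.68 (SE 0.0928), with an unadjusted p-value of 5.13e-06 and edgeR adjusted p-values of 0.0906 without and 0.0258 with the replicate block. Same-numbered pools differed by −0.81, −0.70 and −0.52, each lower in Dot1l fl/fl.

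Slc18a2, which loads dopamine and other monoamines into synaptic vesicles, stood at 89, 83.6 and 83.3 CPM in Dot1l +/+ and at 54.2, 52.5 and 53.3 CPM in Dot1l fl/fl. The 3 Dot1l fl/fl pools lay within 2 CPM of each other and far below the lowest control. Its log2 fold change was −0.68 (SE 0.107, edgeR adjusted p-value 0.197 without and 0.0483 with the block).

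Th, the rate-limiting enzyme of dopamine synthesis, was at 84.3, 77.4 and 64 CPM in Dot1l +/+ and at 48.7, 44.5 and 45 CPM in Dot1l fl/fl. Controls spread more widely than the Dot1l fl/fl pools, and the lowest control was still above every Dot1l fl/fl pool. The log2 fold change was −0.71 (SE 0.118, edgeR adjusted p-value 0.248 without and 0.0258 with the block), and the pairs of pools gave −0.79, −0.80 and −0.51. With any 1 of the 9 libraries left out, the fold change of Th stayed between −0.81 and −0.62, that of Slc6a3 between −0.72 and −0.62 and that of Slc18a2 between −0.69 and −0.65. Among the fits without the block that left out 1 library, all 3 genes met the threshold where that library was Dot1l fl/+ replicate 2 or 3 (4 genes in total each time) and in no other. In bulk tissue, fewer cells of a type and less RNA per cell cannot be told apart.

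The Dot1l fl/+ libraries share the controls, so their values are given side by side. Mean levels in Dot1l fl/+ were 83.7%, 80.5% and 85.7% of the control mean for Slc6a3, Slc18a2 and Th, against 62.5%, 62.5% and 61.2% in Dot1l fl/fl. Dot1l fl/fl directly against Dot1l fl/+ gave −0.42, −0.37 and −0.48, with unadjusted p-values of 0.000519, 0.0043 and 0.00118 and edgeR adjusted p-values of 0.535, 0.615 and 0.549. In that comparison an unadjusted p-value under 0.05 was found for 1145 genes (6.48%), and none passed the adjusted threshold in edgeR. Dot1l fl/+ replicate 3 was low in all 3 genes, at 141, 138 and 106 CPM for Slc6a3 in replicates 1 to 3.

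**Figure D1:**
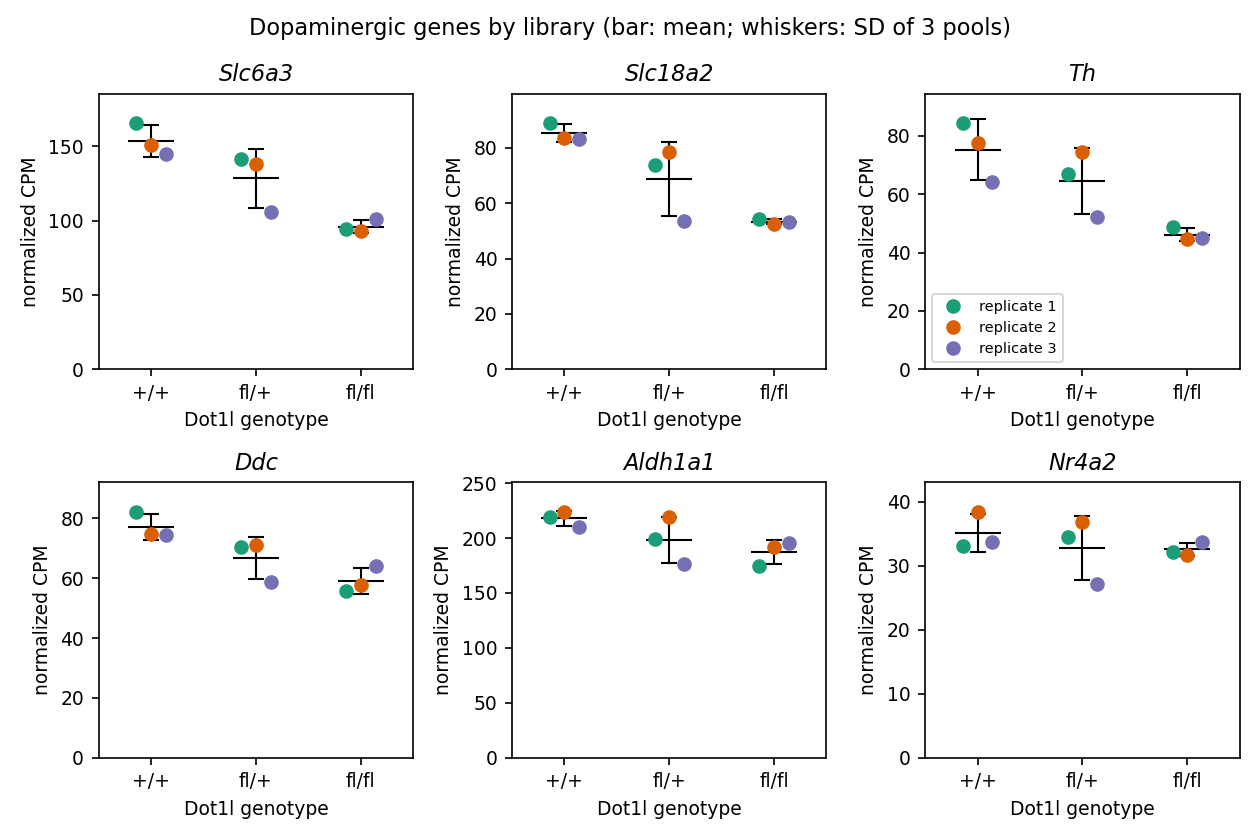
Normalized CPM (y axis) of 6 dopaminergic genes in each library by Dot1l genotype, with a point per pool coloured by replicate number, the mean as a bar and the SD of 3 pools as whiskers. Slc6a3, Slc18a2, Th, Ddc and Aldh1a1 have each Dot1l fl/fl pool below each Dot1l +/+ pool, while Nr4a2 overlaps.

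Of 15 genes for dopamine synthesis, storage, reuptake and breakdown, 7 were lower at an unadjusted p-value under 0.05 and 0 were higher. Ddc, the decarboxylase that completes dopamine synthesis, was at 82.3, 74.8 and 74.4 CPM in Dot1l +/+ and 55.6, 57.7 and 64 CPM in Dot1l fl/fl, with no overlap and a log2 fold change of −0.39 (SE 0.0796, adjusted p-value in edgeR 0.97). Gch1, which starts the synthesis of the tetrahydrobiopterin that Th needs, was at 5.77, 6.57 and 6.5 CPM and 4.92, 5.18 and 4.06 CPM, a difference of −0.40 (SE 0.142). These 2 genes act beside Th in making dopamine, and neither passed after adjustment in edgeR on all 9 libraries, while Ddc did in DESeq2 on the 6.

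Aldh1a1, an aldehyde dehydrogenase (Ahd2) of ventral nigral dopamine neurons, was at 219, 224 and 210.3 CPM in Dot1l +/+ and at 175, 192 and 195 CPM in Dot1l fl/fl (−0.22, SE 0.0712). Slc10a4, a protein of monoaminergic and cholinergic vesicles, was at 15.6, 16.6 and 13.2 CPM and 11.9, 12.5 and 11.8 CPM (−0.32, SE 0.122). Both had pools that did not overlap. The autoreceptor Drd2 was at 14, 13.2 and 11 CPM and 11.5, 10.8 and 11.9 CPM, with overlapping pools and a difference of −0.16 (SE 0.116, unadjusted p-value 0.182). The genes for breakdown and for recycling of tetrahydrobiopterin had small differences, from −0.10 for the monoamine oxidase Maoa to 0.13 for Pcbd1, and none had an unadjusted p-value under 0.05.

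Of 15 transcription factors of dopamine neurons, 5 were lower at an unadjusted p-value under 0.05, 0 were higher, and all 15 had a negative fold change (median −0.22). The count of lower factors was 3 without Dot1l fl/fl replicate 2 and 3 without replicate 1 of every genotype. Lmx1b was at 6.53, 5.84 and 4.92 CPM in Dot1l +/+ and 4.12, 3.91 and 3.64 CPM in Dot1l fl/fl (−0.56, SE 0.164, unadjusted p-value 0.00468). It also marks serotonin neurons, and of 7 tested serotonin genes it was the 1 gene with an unadjusted p-value under 0.05. En1, needed for the survival of dopamine neurons, was at 4.87, 4.64 and 4.85 CPM and 4.12, 3.28 and 2.73 CPM (−0.49, SE 0.182).

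Pitx3, the gene whose locus carries Cre, was very low in this tissue, with 50 counts in all in the 3 control libraries and 17 in the 3 Dot1l fl/fl libraries. In CPM it was at 0.426, 0.859 and 0.789 and 0.28, 0.316 and 0.121, without overlap, and its log2 fold change of −1.45 had a wide SE of 0.456 (unadjusted p-value 0.0069). Foxa2 was at 2.6, 2.45 and 3.23 CPM and 2.08, 1.5 and 1.94 CPM (−0.59, SE 0.24), and Sox6, of nigral neurons, at 25, 27.1 and 23.9 CPM and 18.5, 22.4 and 23.5 CPM (−0.24, SE 0.096). The 5 factors had pools that did not overlap, and none passed after adjustment.

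The other 10 factors had overlapping pools. Nr4a2 was at 33.1, 38.5 and 33.8 CPM in Dot1l +/+ and at 32.2, 31.8 and 33.7 CPM in Dot1l fl/fl, a difference of −0.11 (SE 0.101, unadjusted p-value 0.296). Bnc2 (−0.51, SE 0.343), Foxa1 (−0.22, SE 0.164), Lmx1a (−0.22, SE 0.287) and Satb1 (−0.11, SE 0.101) had unadjusted p-values of 0.163, 0.211, 0.451 and 0.288 in edgeR.

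Of 18 receptors, channels and trophic receptors, 6 were lower at an unadjusted p-value under 0.05 and 0 were higher. Ret, the signalling receptor for GDNF, was at 140.3, 128 and 117 CPM in Dot1l +/+ and 112, 103 and 111 CPM in Dot1l fl/fl (−0.24, SE 0.067, unadjusted p-value 0.00298). Gfra1, which binds GDNF together with Ret, was at 74.2, 78.1 and 76.2 CPM and 69.8, 70.4 and 72.8 CPM (−0.10, SE 0.0541), without overlap but with an unadjusted p-value of 0.0819. Ntsr1, the neurotensin receptor, was at 13.5, 14 and 12.5 CPM in the controls and at 11 CPM or less in each Dot1l fl/fl pool (−0.34, SE 0.111).

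Nicotinic acetylcholine receptor subunits are part of the same list. Chrna6, a subunit that dopamine neurons express strongly, was at 21.5, 19.5 and 21.2 CPM in Dot1l +/+ and 15.5, 15.3 and 17.6 CPM in Dot1l fl/fl (−0.36, SE 0.11). Chrna5 was at 3.69, 4.51 and 5.33 CPM and 2.88, 2.85 and 2.61 CPM (−0.70, SE 0.257) and Chrna3 at 5.06, 6.4 and 4.51 CPM and 3.64, 4.11 and 3.7 CPM (−0.47, SE 0.17). Pools of these 3 subunits did not overlap. Chrnb3 (−0.19, SE 0.104), Chrna4 (−0.13, SE 0.0689) and Chrnb2 (−0.043, SE 0.0562), which complete such receptors, had unadjusted p-values of 0.0898, 0.0895 and 0.456. Gucy2c, a guanylyl cyclase, had a difference of −0.69 (SE 0.27) but overlapping pools, at 5.63, 4.85 and 2.71 CPM and 2.96, 2.57 and 2.55 CPM. The channel Kcnj6 (Girk2) was at 17.1, 16.2 and 20.5 CPM and 18.4, 18.5 and 18.6 CPM, a difference of 0.04 (SE 0.104).

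**Figure D2:**
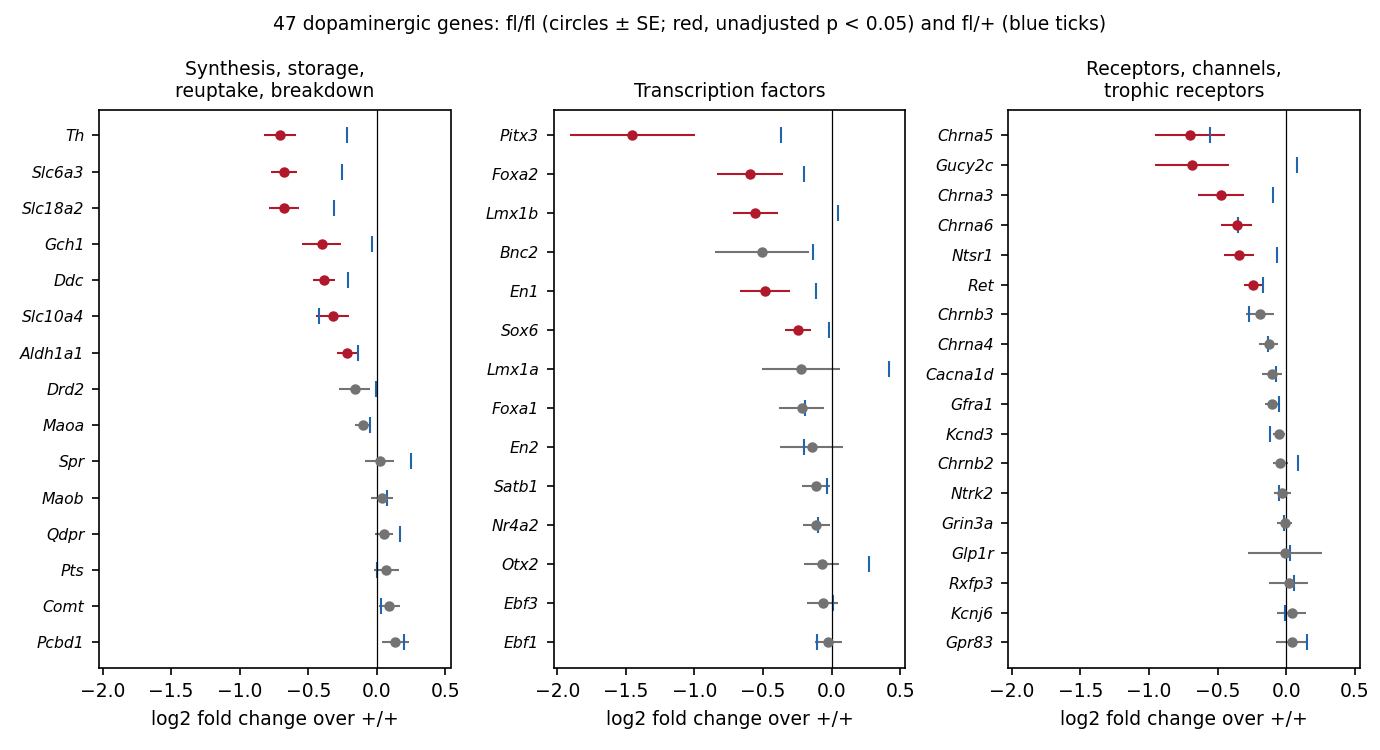
Log2 fold change over Dot1l +/+ (x axis) of 47 of the 48 dopaminergic genes in 3 panels by role, with Dot1l fl/fl as circles with their SE and Dot1l fl/+ as blue ticks. The 18 red circles have an unadjusted p-value under 0.05 in Dot1l fl/fl and all lie below 0.

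Together, the 3 lists held 48 genes, all tested, of which 18 (37.5%) were lower at an unadjusted p-value under 0.05 and 0 were higher, against 1.72% and 2.21% of all genes. In 20 of them (41.7%) every Dot1l fl/fl pool was below every control, against 5.25% of all genes, and in 0 was it above (5.03% of all genes). The median fold change was −0.14, beside 0.0009 over all genes tested and −0.053 for the same 48 genes in Dot1l fl/+. With the replicate block 18 were lower as well, with any 1 library left out the count lay between 14 and 20, and without replicate 1 of every genotype it was 11; 0 were higher each time. These lists were chosen with results of these libraries known, so the counts describe the genes and are no independent test of them.

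**Figure D3:**
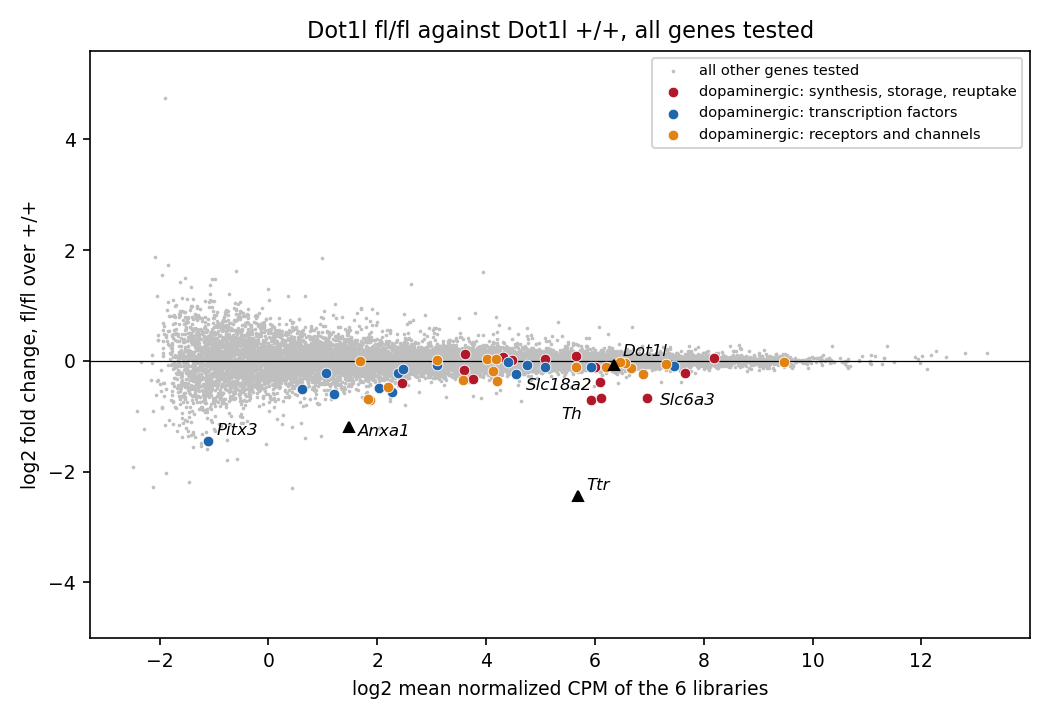
Log2 fold change of Dot1l fl/fl over Dot1l +/+ (y axis) against the log2 mean normalized CPM of the 6 libraries (x axis) for the 17671 genes tested, with the dopaminergic lists in colour. Slc6a3, Slc18a2 and Th lie between −0.71 and −0.68, apart from other genes of their level, whereas Ttr, at −2.44, had controls that spread widely.

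Other lists hold genes that separate the subsets of dopamine neurons. Of 14 tested genes of the substantia nigra subset, 6 (42.9%) were lower at an unadjusted p-value under 0.05 and 0 were higher, against 1.72% and 2.21% of all genes. All 6 had lower pools without overlap, as 5.25% of all genes did. Among the 6 are Slc6a3, Aldh1a1 and Sox6, already described and counted above. Anxa1, an annexin of a ventral nigral subset, was at 4.16, 3.48 and 4.13 CPM in Dot1l +/+ and 1.96, 1.66 and 1.46 CPM in Dot1l fl/fl, a log2 fold change of −1.20 (SE 0.237, edgeR adjusted p-value 0.918, past the threshold without Dot1l fl/+ replicate 2), and was at 2.0, 3.64 and 2.06 CPM in the Dot1l fl/+ libraries. The last 2, named after their values were seen, were the neurotrophic gene Ndnf (−0.27, SE 0.0862) and Aldh1a7 (−0.69, SE 0.25), a close paralog of Aldh1a1 with which it may share reads. The list's median was −0.075. Of its members 7 had a negative and 7 a positive fold change, and the 8 without such a p-value lay between −0.16 and 0.19, Kcns3 and Aldh1a3 at the ends. Without Dot1l fl/fl replicate 1, and without replicate 1 of every genotype, 3 of the genes were lower.

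Of 15 tested genes of the ventral tegmental subset, 2 (13.3%, against 2.21% of all genes) were higher at an unadjusted p-value under 0.05 and 0 were lower (median −0.011, 7 positive and 8 negative fold changes). With the replicate block 1 was lower, the neuropeptide gene Nts (−0.28). The neuropeptide gene Cck was at 76.4, 69.8 and 69.9 CPM in Dot1l +/+ and at 86.2, 90.2 and 77.8 CPM in Dot1l fl/fl, without overlap (0.24, SE 0.0952, unadjusted p-value 0.0272). Neurod6 was at 46.1, 41.7 and 59.1 CPM and 78.4, 68.8 and 49 CPM, with overlap (0.42, SE 0.17), and it is also abundant in cortex and hippocampus. Without control replicate 2, Dot1l fl/fl replicate 1 or Dot1l fl/fl replicate 2, none of the list had an unadjusted p-value under 0.05 in edgeR. The difference between the 2 subsets was not tested.

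The nuclear genes of the respiratory chain leaned the other way. Of 82 genes for the subunits of complexes I to V, 15 (18.3%) were higher and 1 (1.22%) was lower at an unadjusted p-value under 0.05, against 2.21% and 1.72% of all genes. With the replicate block there were 21 and 1, against 2.46% and 1.96% of all genes. The median of the 82 genes was 0.082, beside 0.21 in Dot1l fl/+. Complex I, which takes electrons from NADH, had 6 of 37 higher and 0 lower (10 and 0 with the block), complex III 2 of 9, complex IV, the cytochrome c oxidase, 4 of 15, and complex V, the ATP synthase, 4 of 18 with 1 lower. Ndufa4, once assigned to complex I and now to complex IV, is counted under both.

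Ndufa3 of complex I was at 21.6, 26.5 and 23.8 CPM in Dot1l +/+ and at 33, 41 and 25.1 CPM in Dot1l fl/fl (0.47, SE 0.151, unadjusted p-value 0.00807), and Ndufa2 was at 14.3, 15.3 and 14 CPM and 16.8, 22.6 and 16.6 CPM (0.36, SE 0.127). Uqcrb of complex III was at 22.7, 22.7 and 23.4 CPM and 27.7, 29.9 and 24.6 CPM (0.26, SE 0.0882). Cox8a of complex IV was at 97.2, 111 and 109.9 CPM and 128, 148 and 107 CPM (0.27, SE 0.107). In each of the 4 genes replicate 2 was the highest and replicate 3 the lowest of the Dot1l fl/fl pools, and in Ndufa3 and Cox8a replicate 3 fell within the range of the controls.

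Over the whole list the same order of pools was seen. The mean log2 CPM of the 82 genes lay 0.08, 0.21 and 0.03 above the control mean in Dot1l fl/fl replicates 1, 2 and 3, while the controls themselves lay between −0.07 and 0.06 of it. Without Dot1l fl/fl replicate 2, 0 of the genes had an unadjusted p-value under 0.05 in edgeR, without control replicate 1 there were 5 higher and without control replicate 3 there were 7. With single libraries left out, the median fold change of the list ranged from 0.042 to 0.12. Only 8 of the 82 genes had all Dot1l fl/fl pools above all controls (9.76%, against 5.03% of all genes) and 1 had them below.

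Of the 13 protein genes of the mitochondrial genome, which encode the core of the same complexes, 7 could be tested. None had an unadjusted p-value under 0.05 in edgeR on all 9 libraries, 2 were higher in edgeR or DESeq2 on the 6 libraries and 3 without the filter on low counts, and the median was 0.11. The most abundant, mt-Co1, was at 8163, 9473 and 9357 CPM in Dot1l +/+ and 10710.0, 9859 and 9173 CPM in Dot1l fl/fl (0.14, SE 0.103), and mt-Cytb had the lowest unadjusted p-value, 0.101.

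Of 77 cytosolic ribosomal protein genes, 11 (14.3%) were higher and 2 (2.6%) lower at an unadjusted p-value under 0.05, against 2.21% and 1.72% of all genes. With the block there were 16 and 2, and the median of the list was 0.085. Without Dot1l fl/fl replicate 2 there were 4 higher, without control replicate 3 there were 5, and without control replicate 1 there were 6. Rpl41, the smallest protein of the ribosome, was at 19.3, 23.7 and 21.6 CPM in Dot1l +/+ and 33.6, 40.8 and 22.7 CPM in Dot1l fl/fl (0.60, SE 0.184), and Rpl32 was at 36.9, 43.1 and 42.9 CPM and 47.5, 51.7 and 46.9 CPM (0.25, SE 0.0878). Of 78 genes of the mitochondrial ribosome 3 (3.85%) were higher and 0 lower, near the 2.21% of all genes that were higher, with a median of 0.038. In 10 (12.8%, against 5.03% of all genes) every Dot1l fl/fl pool was above every control, and in 2 (2.56%, against 5.25%) below. Mrps18c, at 5.49, 6.27 and 5.15 CPM and 8.32, 9.57 and 6.43 CPM, had the lowest p-value among the 78 (0.54, SE 0.146, unadjusted p-value 0.00269). Without Dot1l fl/fl replicate 2 there was 1 higher and 1 lower, and without Dot1l fl/fl replicate 3 there were 5 higher. Ribosomal protein genes have many near-identical pseudogene copies, so their reads may be split between them.

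The 3 metallothioneins, small proteins that bind zinc and copper, were all higher at an unadjusted p-value under 0.05. Mt1 was at 55.3, 69.3 and 65.9 CPM in Dot1l +/+ and 89.1, 108 and 67.5 CPM in Dot1l fl/fl (0.48, SE 0.134, unadjusted p-value 0.0033), and Mt3, the brain form, was at 50.6, 62.2 and 48.2 CPM and 87, 104 and 52.5 CPM (0.60, SE 0.186). Replicates 1 and 2 were above every control in both, and replicate 3 was within their range. Without Dot1l fl/fl replicate 2 there were 2 such genes, and without replicate 1 of every genotype there was 1. Of 26 antioxidant enzymes 2 were higher (7.69%, against 2.21% of all genes), Selenow (0.25, SE 0.0863) and Hmox1 (0.33, SE 0.142). With the replicate block there were 3, where Hmox1 had an unadjusted p-value of 0.0561 in edgeR and Gsta4 (0.18) and Gstm5 (0.15), named after their values were seen, stood beside Selenow. With single libraries left out there were 4 without Dot1l fl/fl replicate 3 and 1 without any of control replicates 1 and 3 and Dot1l fl/fl replicates 1 and 2.

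Short transcripts were higher more often than long ones. When the genes were split into 5 equal classes by the length of the longest transcript, the shortest class (median 1059 bases) had 208 genes higher and 46 lower at an unadjusted p-value under 0.05 and a median fold change of 0.038. The longest class (median 6571 bases) had 24 higher and 102 lower and a median of −0.027. Pseudogenes, which are mostly short, had 100 higher and 15 lower of 1190 tested (9.66%), against 259 and 249 of 14734 protein-coding genes (3.45%). With an offset for length and GC content in the fit, the shortest class had 150 higher and 79 lower, and the longest 59 and 57. Under that offset the respiratory chain had 13 genes higher and 1 lower, the cytosolic ribosome 9 and 4, the metallothioneins 3 and 0, and the dopaminergic lists 0 and 18. Without Dot1l fl/fl replicate 2 the shortest class had 77 higher and 45 lower and the longest 18 and 28. The longest class had 51 higher and 59 lower without control replicate 3, 21 and 57 without control replicate 1, 15 and 107 without control replicate 2, 15 and 60 without Dot1l fl/fl replicate 1, 41 and 148 without Dot1l fl/fl replicate 3 and 46 and 168 without Dot1l fl/+ replicate 2. The shortest had 137 and 51 without control replicate 1. The Th, Slc6a3 and Slc18a2 transcripts lie in the middle of the range, at 1950, 3456 and 4393 bases.

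**Figure D4:**
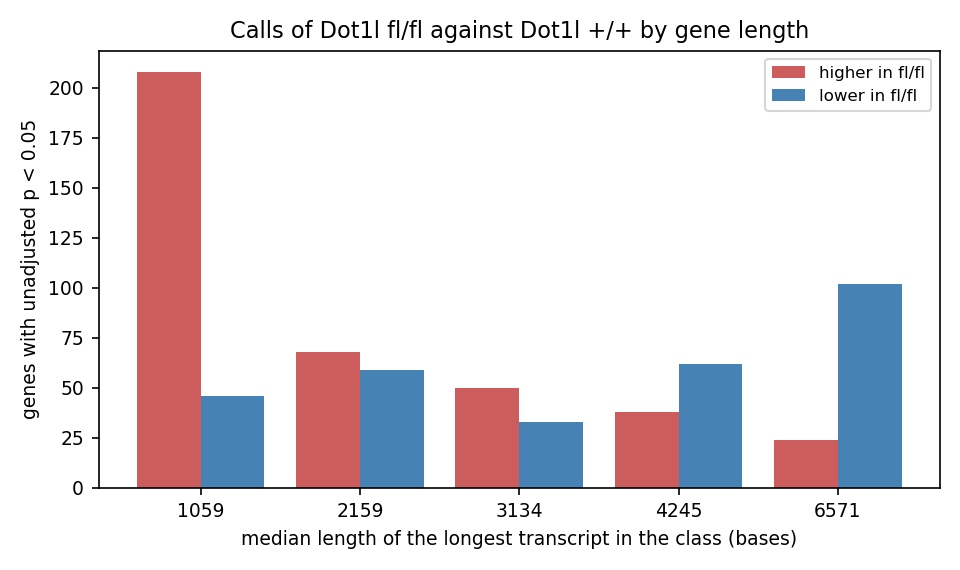
Number of genes with an unadjusted p-value under 0.05 (y axis, from 0) that were higher or lower in Dot1l fl/fl, in 5 equal classes by length of the longest transcript (x axis, median length in bases). Higher genes fall from 208 in the shortest class to 24 in the longest, and lower genes number 46 and 102.

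Of the 12 higher genes with the lowest p-values, 6 are processed pseudogenes, and the lowest unadjusted p-value among them was 0.000652, for Gm7407 (0.40, SE 0.0909). Among those that are not, Cpne6, a copine of neurons, was at 215, 211 and 229 CPM in Dot1l +/+ and 275, 262 and 238 CPM in Dot1l fl/fl (0.24, SE 0.0631, unadjusted p-value 0.00195). Rasl11a, a small GTPase of the Ras family, was at 4.07, 3.91 and 3.72 CPM and 5.56, 5.93 and 4.91 CPM (0.50, SE 0.132). Sycp3, a protein of the meiotic synaptonemal complex, was low at 0.473, 0.773 and 0.451 CPM and 1.48, 1.03 and 1.76 CPM (1.30, SE 0.331). The pools of these 3 genes did not overlap. Ftl1, the ferritin light chain, had 0.94 (SE 0.246), and shares sequence with several copies. The edgeR adjusted p-value of each was 0.999.

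Of the 12 lower genes with the lowest p-values, 4 belong to the dopaminergic lists, and Anxa1 stands beside them. Ntn1, the axon guidance ligand netrin-1, was at 32.7, 31.6 and 30.5 CPM in Dot1l +/+ and 24.2, 24 and 26.9 CPM in Dot1l fl/fl, without overlap (−0.34, SE 0.0713, unadjusted p-value 0.000329, edgeR adjusted p-value 0.97). Of 64 axon guidance genes 4 (6.25%) were lower and 1 (1.56%) was higher, against 1.72% and 2.21% of all genes. These counts were 1 and 2 with the offset for length and GC, and 2 and 0 without control replicate 1 or 2 or Dot1l fl/fl replicate 1 or 2. Plxnd1, a receptor for class 3 semaphorins, was at 24.4, 21.7 and 23 CPM and 18.9, 20.2 and 19.5 CPM (−0.24, SE 0.0827). Gldn, a gliomedin of the nodes of Ranvier, was at 4.11, 4.47 and 3.98 CPM and 2.88, 3.04 and 2.43 CPM (−0.58, SE 0.157). F2rl3, a protease-activated receptor, rested on 31 counts in the controls and 7 in Dot1l fl/fl.

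Ttr, the thyroxine carrier transthyretin made by the choroid plexus, had the largest difference of the 12 lower genes, at 116, 39.5 and 106 CPM in Dot1l +/+ and 19.2, 13.4 and 15.6 CPM in Dot1l fl/fl (−2.44, SE 0.596, adjusted p-value in edgeR 0.999). In edgeR it passed an adjusted p-value of 0.05 on the 6 libraries, without the filter on low counts and without Dot1l fl/+ replicate 3. Control replicate 2 was far below the other controls, and the Dot1l fl/+ libraries were at 79.7, 137 and 505 CPM, the first below control replicates 1 and 3 and the others above every control. Of 10 choroid plexus markers, 4 (40%, against 1.72% of all genes) were lower at an unadjusted p-value under 0.05 and 0 were higher. Among the 4 was Kcne2, a potassium channel subunit, at 1.18, 0.644 and 1.28 CPM and 0.56, 0.0395 and 0.303 CPM. The summed level of the 10 markers was 85.1 to 180.5 CPM in Dot1l +/+ and 56.7 to 64.8 CPM in Dot1l fl/fl, and their median fold change was −0.96, beside 0.90 in Dot1l fl/+. With single libraries left out, 1 to 7 of them were lower, with 1 each without control replicate 1, control replicate 3 or Dot1l fl/fl replicate 2. The choroid plexus is no part of the midbrain proper, and the part of the dissection in these values was not tested.

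Microglia markers were higher in value in many pools. Of 16 genes, 3 (18.8%, against 2.21% of all genes) were higher at an unadjusted p-value under 0.05 and 0 lower. In 9 (56.2%, against 5.03% of all genes) each Dot1l fl/fl pool was above each control. Trem2, a lipid receptor of microglia, was at 6.76, 7.3 and 6.91 CPM in Dot1l +/+ and 8.52, 9.21 and 8.19 CPM in Dot1l fl/fl (0.31, SE 0.122, unadjusted p-value 0.0246). Aif1, which encodes Iba1, was at 2.79, 2.62 and 3.38 CPM and 3.84, 4.23 and 3.7 CPM (0.42, SE 0.169), and the third, named after its values were seen, was the growth factor receptor gene Csf1r (0.15, SE 0.0607). The summed level of the 16 genes was 475 to 496 CPM in Dot1l +/+ and 510.0 to 559 CPM in Dot1l fl/fl, with a median fold change of 0.15, beside 0.15 in Dot1l fl/+, which shares the controls. None passed after adjustment in edgeR, with or without the block, and without Dot1l fl/fl replicate 2 none had an unadjusted p-value under 0.05, while without control replicate 1 there was 1 and without Dot1l fl/+ replicate 1 there were 6.

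None of 16 oligodendrocyte, 14 astrocyte, 15 endothelial and mural, 10 thalamus, 10 striatum and 5 blood markers tested had an unadjusted p-value under 0.05 in edgeR on all 9 libraries. With 1 library left out, at most 2 oligodendrocyte markers were lower (without Dot1l fl/fl replicate 1), 2 thalamus markers were higher (without Dot1l fl/+ replicate 2) and at most 1 marker in either direction was found in each of the other lists. All Dot1l fl/fl pools were below all controls for Cldn5 (−0.12) and Ly6c1 (−0.15) of the endothelial and mural list and Ppp1r1b (−0.14) of the striatum list. They were above all controls for Gbx2 (0.17) of the thalamus list, and all these genes were named after their values were seen. Over all genes 5.25% had such pools below and 5.03% above. The endothelial and mural, striatum and thalamus lists had medians of 0.0051, −0.013 and 0.018. Of their members 8 of 15, 5 of 10 and 6 of 10 had positive fold changes. Of 5 tested markers of cholinergic and motor neurons 1 was higher, the intermediate filament gene Prph, at 3.97, 2.71 and 4.17 CPM in Dot1l +/+ and 5.6, 4.71 and 4.25 CPM in Dot1l fl/fl, without overlap (0.43, SE 0.191, unadjusted p-value 0.0416, and 0.0569 in edgeR with the replicate block), and without control replicate 2 or Dot1l fl/fl replicate 1 or 2 there was 0. Of 12 cortex and hippocampus markers Neurod6, given above, was the 1 higher gene, and 0 were lower (3 higher without control replicate 3, 2 without Dot1l fl/+ replicate 2 or Dot1l fl/fl replicate 3, and 0 without control replicate 1 or 2 or Dot1l fl/fl replicate 1 or 2). Of 11 GABA neuron markers 1 was higher, the neuropeptide gene Npy, at 7.14, 5.62 and 6.88 CPM in Dot1l +/+ and 8.72, 11.6 and 8.61 CPM in Dot1l fl/fl (0.56, SE 0.152, unadjusted p-value 0.00257). Of 8 tested hypothalamic neuropeptides 1 (12.5%) was higher, Cartpt (0.41, SE 0.126), with overlapping pools and a list median of −0.10. Of 17 immediate early genes 1 (5.88%) was higher, Fosb (0.48, SE 0.208), and the list median was −0.031. That list had 2 higher without Dot1l fl/+ replicate 2 and 0 without control replicate 2, control replicate 3 or Dot1l fl/fl replicate 1. Over all genes tested 2.21% were higher. Proteasome, endoplasmic reticulum chaperone, Wnt, cell cycle exit, interferon, circadian clock and cholesterol synthesis genes had 0 with an unadjusted p-value under 0.05, and medians between −0.070 and 0.041, though with the replicate block the Wnt list had 1 higher, Wnt4 (0.23). These zeros are of the fit on all 9 libraries: 3 circadian clock genes were lower without control replicate 1, and any other leave-out gave at most 1 gene in a direction per list.

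**Figure D5:**
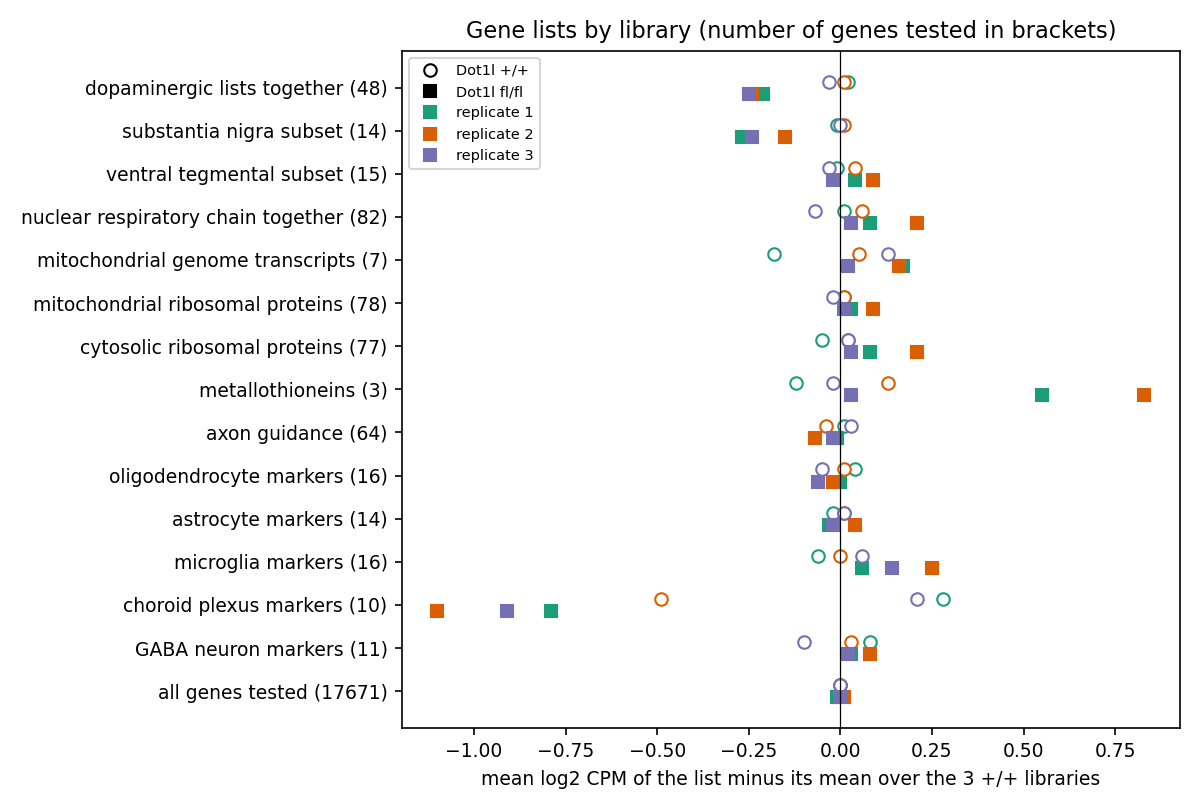
Mean log2 CPM of each gene list in each library minus its mean over the 3 Dot1l +/+ libraries (x axis), for 14 lists and all genes tested (y axis), with open circles for Dot1l +/+, squares for Dot1l fl/fl and colours for the replicate number. The dopaminergic genes lie at −0.21 to −0.25 in all 3 Dot1l fl/fl pools, the respiratory chain at 0.03 to 0.21 and the choroid plexus markers at −0.79 to −1.10.

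Genes near Dot1l were examined because a floxed allele carries flanking chromosome with it. Of 201 genes tested within 5 Mb of Dot1l, 4 (1.99%) were higher and 1 (0.498%) was lower at an unadjusted p-value under 0.05, against 2.21% and 1.72% of all genes, with a median of −0.010. The higher genes were Smarcb1 (0.13, SE 0.0567), a subunit of the SWI/SNF remodeller, Pfkl (0.15, SE 0.0537), the liver form of phosphofructokinase, Gamt (0.28, SE 0.126), which completes creatine synthesis, and Rps15 (0.25, SE 0.11), and the lower gene was Apc2 (−0.18, SE 0.0834). With the replicate block 3 were higher and 3 lower in edgeR: Gamt had an unadjusted p-value of 0.0527 and Pcnt (−0.15) and Abca7 (−0.15), named after their values were seen, joined Apc2. The fold changes of the 201 genes ranged from −0.75 to 0.56, and the ends of that range did not have an unadjusted p-value under 0.05 in edgeR.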

How the data were processed

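RNA from dissected P180 midbrain was sequenced in 9 libraries, 3 per Dot1l genotype, each a pool of 3. Per the labels and the paper, the authors made directional libraries from RNA with RQN above 6, and the submitters' processing notes name bcl2fastq 2.17, Trimmomatic 0.30, GRCm38.p4 and DESeq2 1.10.1. The deposited files hold raw counts per Ensembl gene. The aligner, counter, strand setting and annotation release are not given in the sources used here. The deposited comparisons (mean, log2 fold change, standard error, statistic, p and adjusted p) were not used.

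Of 47729 identifiers, 47310 (99.9% of counts) had a gene in GENCODE M21. Genes kept by filterByExpr were fitted with edgeR 4.0.16 (R 4.3.3, limma 3.58.1; TMM, quasi-likelihood test, Benjamini-Hochberg adjustment) over all 9 libraries with genotype as the only term. TMM factors lay between 0.988 and 1.01, the biological coefficient of variation was 8.81%, and library totals were 16422135 to 28403218. Intervals from counting alone would be too narrow, since replicates differed by 4.74 to 17.7 times the counting variance.

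Each pool took 1 set of the 3 genotypes per nest, and the deviations of same-numbered Dot1l fl/fl and Dot1l +/+ libraries correlated at 0.684, 0.409 and 0.252 over 10631 genes (differently numbered ones at −0.540 to 0.342, with control 2 and Dot1l fl/fl 3 at 0.330). The methods do not say that the numbers mark these sets. Every same-number correlation was over 0.1, so the numbers were taken as pairs, although number 3 was not set apart from differently numbered pools. A fit with the replicate number as a block is given where it changes a call.

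The members and gene lists were chosen with earlier results of these data known. Genes named are Dot1l, members of the 3 dopaminergic lists, the 12 higher and 12 lower genes with the lowest p-values, the 2 lowest p-values of every other list and genes within 5 Mb of Dot1l with an unadjusted p-value under 0.05. Others are marked, and some genes under the rule are not reported here. Alternatives were DESeq2 1.42.0, its size factors, TMM without rRNA-like and mitochondrial genes, other filters, the 6 libraries alone, the block, an offset for length and GC (splines, 4 degrees of freedom), each library left out and, added after the data were seen, leaving out replicate 1 of every genotype. The fits were tested on simulated data with known changes and no effect of pairs. With no change, 2 genes were called without the block and 3 with it. With 200 genes changed by a log2 value of 0.5, 11 unchanged genes were called without the block and 18 with it. Tables and figures were made in Python 3.11.15 (matplotlib 3.10.9, numpy 2.4.6, pandas 2.3.3).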

Additional observations from a re-analysis of the deposited data

How the results depend on the processing

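The count of genes past an adjusted p-value of 0.05, 0 in edgeR on all 9 libraries, was 3 in DESeq2 on all 9 libraries, 8 in DESeq2 and 4 in edgeR on the 6 libraries, 118 without the filter on low counts (77 higher), and 3 with the replicate block, alone or with the offset for length and GC. It was 0 with DESeq2's size factors, with TMM without rRNA-like and mitochondrial genes, with 10 counts in every library and with the offset alone, and 0 to 4 with a library left out. Slc6a3, Slc18a2 and Th were the genes called with the block. The block changed no other adjusted call. At an unadjusted p-value under 0.05 (694 genes) there were 1210 without the filter and 404 without replicate 1 of every genotype, and 382 to 942 with a library left out. Under 0.01 (117 genes) there were 206 in edgeR on the 6 libraries, 423 without the filter, 47 without replicate 1 of every genotype, and 52 to 228 with a library left out.

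With a library left out, the median log2 fold change ranged from −0.17 to −0.13 for the dopaminergic lists, 0.042 to 0.12 for the respiratory chain, 0.020 to 0.17 for the mitochondrial genome, 0.031 to 0.045 for the mitochondrial ribosome, 0.048 to 0.13 for the cytosolic ribosome, 0.12 to 0.18 for microglia markers and −1.19 to −0.76 for choroid plexus markers (−0.37 with 10 counts in every library), and Dot1l ranged from −0.095 to −0.016. Kcnj6 ranged from −0.023 without control replicate 2 to 0.15 without control replicate 3. The causes of these moves were not tested. With 3 pools a genotype, small differences may not be detectable after adjustment.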
